A study of Homo sapiens with 14 samples.

Results

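The 2 DMSO 12 h libraries of a miRNA time course in PANC-1 cells were set against the 6 DMSO libraries of 0, 3 and 24 h. They are 2 of the 14 small RNA libraries of the series. PANC-1, a long-established line of human pancreatic ductal carcinoma cells, was kept as a monolayer in medium with fetal bovine serum. In the series, cells met grape proanthocyanidins (PA, plant polyphenols built from flavan-3-ol units) at 20 µg/ml or DMSO, the solvent that served as the vehicle. All 8 DMSO libraries are therefore vehicle controls, and time is the only difference in treatment that their labels give, with 2 libraries (A and B) per time. Whether the times shared culture, handling or library batch is not in the labels, so a batch cannot be told apart from time. The PA arm has 6 libraries, at 3, 12 and 24 h, which enter only where they are named. Whether the cultures behind A and B were separate is not in the labels, so the spread between them may be technical.

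This contrast was chosen because DMSO 12 h had already been seen to stand apart in these data. Its calls and fold changes are therefore a description of the 2 libraries and no independent test of an effect of time. All values are shares of the counted reads, so fewer cells that make a miRNA and less of it in each cell cannot be told apart.

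miRNAs are short RNAs cut by Drosha and Dicer from a hairpin transcript. A mature strand from 1 arm of the hairpin, 5p or 3p, is loaded into Argonaute and guides it to mRNAs, mainly through the seed, bases 2 to 8. miRNAs that share a seed form a family with overlapping targets, and neighbouring hairpins are often cut from 1 primary transcript. Control samples of a time course hold the changes that come with time in culture and handling, which treated samples are read against.

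The sequences printed first are those of seed families whose called members were all higher in DMSO 12 h. They come from the RefSeq table for GRCh38.p14, are written 5′ to 3′, and carry the seed in capitals. The seed of miR-99a-5p, miR-100-5p and miR-99b-5p is the same, as are those of the 3 let-7 relatives, the miR-146 pair and the miR-1268 pair.
miR-99a-5p: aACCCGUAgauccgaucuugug
miR-100-5p: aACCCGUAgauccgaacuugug
miR-99b-5p: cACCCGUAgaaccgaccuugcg
let-7g-5p: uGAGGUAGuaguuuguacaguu
let-7i-5p: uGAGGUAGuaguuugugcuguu
miR-98-5p: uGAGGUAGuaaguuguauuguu
miR-146a-5p: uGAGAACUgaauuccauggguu
miR-146b-5p: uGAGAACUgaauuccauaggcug
miR-1268a: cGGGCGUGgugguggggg
miR-1268b: cGGGCGUGguggugggggug

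The next set holds members of families whose called members were all lower, and single miRNAs called lower that are described below. miR-23c, a further lower member of the miR-23 family, is named only.
miR-23a-3p: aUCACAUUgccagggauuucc
miR-23b-3p: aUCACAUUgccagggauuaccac
miR-27a-3p: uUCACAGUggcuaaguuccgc
miR-29a-3p: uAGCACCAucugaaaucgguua
miR-29b-3p: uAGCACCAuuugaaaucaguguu
miR-19a-3p: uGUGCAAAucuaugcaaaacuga
miR-19b-3p: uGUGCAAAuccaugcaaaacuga
miR-96-5p: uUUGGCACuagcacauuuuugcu
miR-362-3p: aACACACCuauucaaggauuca
miR-33a-5p: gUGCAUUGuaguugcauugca
miR-210-3p: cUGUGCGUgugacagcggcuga
miR-135a-5p: uAUGGCUUuuuauuccuauguga
miR-153-3p: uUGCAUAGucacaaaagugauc

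The last 4 are shown because members of 1 seed family stood on opposite sides of the contrast. miR-103a-3p was higher and miR-107 lower, and miR-92b-3p was higher and miR-32-5p lower.
miR-103a-3p: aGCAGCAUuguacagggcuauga
miR-107: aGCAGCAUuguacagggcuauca
miR-92b-3p: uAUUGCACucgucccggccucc
miR-32-5p: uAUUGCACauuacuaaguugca

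A level is given in CPM, counts per 1000000 counts of a library after TMM scaling of its total (a scaling that aligns the bulk of entries between libraries). Total counts in the 8 DMSO libraries ran from 1032391 to 2762869. The 2 libraries of 12 h had 1710798 (A) and 1032391 (B), and B was the shallowest of all 14. The rank correlation between A and B (Spearman's rho over the 723 entries fitted in DMSO) was 0.936 at 12 h and 0.947 to 0.982 in the other 6 pairs of the series, so the 12 h pair was the least alike. Entries with any count numbered 1734 in A and 1388 in B, against 1428 to 1641 in the other DMSO libraries. Entries without a miRNA name took 3.09% of counts in A and 2.32% in B, against 1.74% to 2.61%. Markers of other cells gave no sign of acinar or islet RNA above trace levels, with sums of 10.5 and 10.2 CPM at 12 h and of 2.19 to 6.29 CPM elsewhere in DMSO. miR-451a and miR-144-3p, defining miRNAs of red cells, had 0 counts in both 12 h libraries. The other blood markers are given further below. The miR-200 family, which marks epithelial cells and is known to be scarce in PANC-1, summed to 56.9 and 56.1 CPM against 58.9 to 83.0.

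Of 2848 entries, 723 had enough counts to be fitted with edgeR, 622 with a human miRNA name and the rest known only by a chromosome and a number. An entry is called when its adjusted p (Benjamini-Hochberg over the 723) was under 0.05. In DMSO 12 h against the mean of DMSO 0, 3 and 24 h, 120 entries were called, 72 higher and 48 lower, which is 16.6% of those fitted (9.96% higher, 6.64% lower). As the contrast was chosen for its size, nothing is read from this share. The called entries had a median log2 fold change of 0.87 when higher and -0.80 when lower, against 0.08 over all 723. More than 2-fold changes were seen in 31 higher and 10 lower entries.

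In 104 of the 120, both 12 h libraries lay outside the range of the 6 others, 60 above and 44 below. In the other 16 they overlapped. Among all 723 fitted entries, called or not, both 12 h libraries lay outside that range in 25% (13.4% above and 11.6% below). Library B lay farther than A from the other times in 52 of the 72 higher and in 30 of the 48 lower entries. The median deviations (log2) were 0.75 in A and 1.05 in B for the higher ones, and -0.72 and -0.80 for the lower ones. The higher entries together took 32.6% of all counts in A and 37.5% in B, against 21.4% to 25.4% in the other DMSO libraries. The lower entries took 12.7% and 11.2%, against 17.6% to 18.8%. Since these entries were called on both 12 h libraries together, the direction they share is fixed by the choice. Counts of called list members in the following paragraphs stand beside 9.96% called higher and 6.64% called lower over all fitted entries, and nothing is read from the difference.

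**Figure D1:**
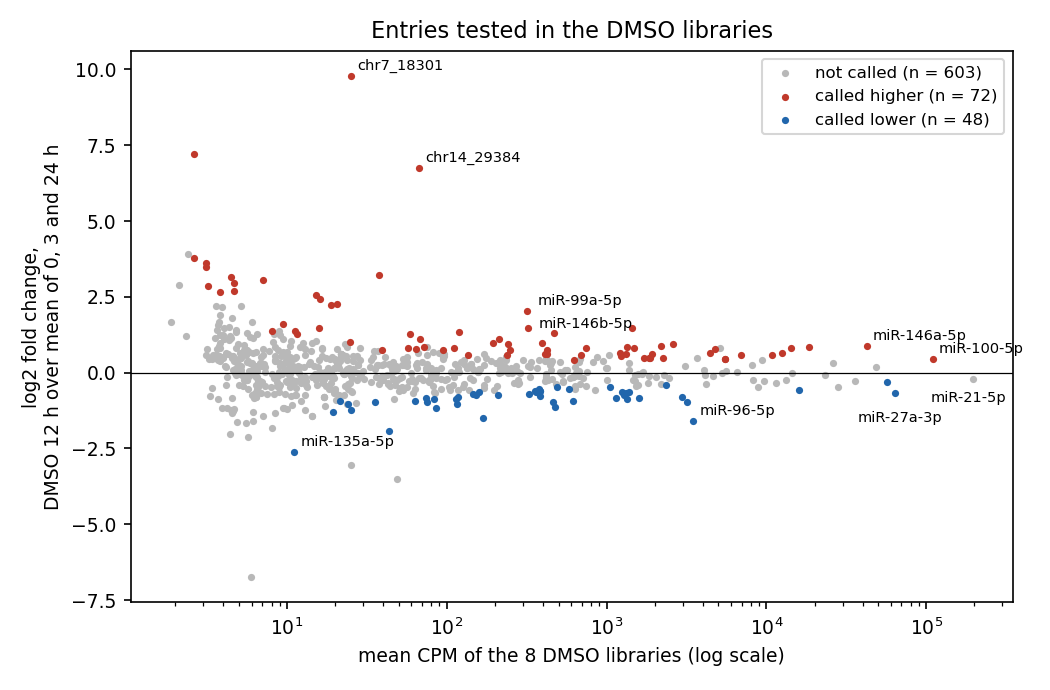
Log2 fold change of DMSO 12 h over the mean of DMSO 0, 3 and 24 h (vertical axis) against the mean CPM of the 8 DMSO libraries (horizontal axis, log scale) for the 723 fitted entries; each point is 1 entry. Called entries, 72 higher in red and 48 lower in blue, reach from rare entries such as chr7_18301 to miR-100-5p and miR-27a-3p, among the most abundant.

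At the edge of the threshold, miR-34a-5p (log2 fold change -0.81), miR-107 (-0.48) and miR-6715b-3p (0.79) were the last inside. miR-1257 (0.81) and the pair miR-423-5p and miR-3184-3p (0.51 each, with identical counts) were the first outside.

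The most abundant miRNA that was higher was miR-100-5p, the second most abundant of all and a repressor of MTOR in several cell types. It had 133439 and 141388 CPM in DMSO 12 h A and B, and 94544, 100419.6 and 108933 CPM (lowest, median and highest) in the 6 other libraries. Both 12 h libraries were above all others, by a log2 fold change of 0.45 ± 0.09. Here and below, ± is an approximate standard error. It is the size of the log2 fold change divided by the square root of edgeR's F statistic. The hairpin of miR-100-5p lies at chr11:122152229-122152308, minus strand, in an intron of MIR100HG.

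Its relative miR-99a-5p differed by more. It had 968 and 485 CPM at 12 h against 139.8, 183 and 211 CPM elsewhere, a log2 fold change of 2.03 ± 0.21. Here A was the higher of the 2 libraries, unlike in most entries. miR-99a-5p differs from miR-100-5p by the single substitution U16A (position counted from the 5′ end of miR-99a-5p). The hairpin lies at chr21:16539089-16539169, plus strand, in an intron of MIR99AHG, so the 2 members come from different chromosomes. The third member, miR-99b-5p (chr19:51692612-51692681, plus strand, in an intron of SPACA6), had 12686 and 16178 CPM against 8366, 9672 and 10533 CPM, a log2 fold change of 0.59 ± 0.12. All 3 fitted miRNAs with this seed were thus called higher. The assignment of reads between miR-99a-5p and the far more abundant miR-100-5p is uncertain, so the 3 are not separate evidence.

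The miR-125 genes lie in the same host transcripts as the miR-99/100 genes, and neither miR-125 entry was called. miR-125a-5p had 4101 and 10864 CPM at 12 h against 3365, 4542 and 5031 CPM. miR-125b-5p had 7680.5 and 15624 CPM against 11622, 13902 and 16464 CPM. In both, A and B of 12 h stood far apart: for miR-125a-5p only B lay above the other 6, and for miR-125b-5p only A lay below them.

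miR-146a-5p and miR-146b-5p share a seed and lie on different chromosomes. Both are known to be induced by NF-kB and to repress TRAF6 and IRAK1 in a feedback loop. miR-146a-5p (chr5:160485352-160485450, plus strand, in an exon of MIR3142HG) had 61754 and 64847 CPM at 12 h against 25830.3, 36215 and 47358 CPM. The 6 other libraries were not level: their means were 25911 CPM at 0 h, 36215 at 3 h and 44513 at 24 h, so the log2 fold change was 1.29 against 0 h and 0.51 against 24 h. Against their mean it was 0.87 ± 0.11. miR-146b-5p (chr10:102436512-102436584, plus strand) had 520.2 and 716 CPM against 200.4, 217 and 244 CPM, a log2 fold change of 1.48 ± 0.15. Its 6 other libraries were close together, and it stood at 1.44, 1.56 and 1.43 against 0, 3 and 24 h.

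The list of miRNAs induced by NF-kB and inflammation held 11 fitted entries, of which 4 were called higher and 0 lower, against 9.96% and 6.64% over all fitted entries (median log2 fold change 0.33 against 0.08). The other 2 called were miR-3142, from the same host transcript as miR-146a and rare (18 and 11.2 CPM against 3.76, 5.42 and 9.64 CPM), and miR-221-3p. The call of miR-3142 was lost in 7 of the 8 fits that left out 1 library, all but the fit without DMSO 12 h B, with log2 fold changes from 0.96 to 1.46. miR-155-5p, a further NF-kB target, was not called, with 26.1 and 19.4 CPM against 10.0, 18.2 and 28.1 CPM.

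miR-221-3p, a repressor of CDKN1B, and miR-191-5p rested on 1 library. miR-221-3p had 12726 CPM in 12 h A and 28811 in B, against 9702, 11702 and 15703 CPM. miR-191-5p had 16576 and 38542 CPM, against 12000.5, 15642 and 19596 CPM. In both, A lay within the other 6 and B above them. Without DMSO 12 h B their log2 fold changes were 0.09 and 0.10, compared with 0.80 ± 0.24 and 0.84 ± 0.24 with it. Without DMSO 12 h A they were 1.27 and 1.32, and both calls were lost in each fit that left out any 1 of the other 6 libraries.

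The let-7 family is known to repress RAS genes, HMGA2 and LIN28. Of 9 fitted let-7 and miR-98 entries, 3 were called higher and 0 lower, with a median log2 fold change of 0.42. let-7i-5p had 15713 and 18649 CPM at 12 h against 9133, 11128 and 13309.5 CPM (0.64 ± 0.12). let-7g-5p had 8817 and 9415 CPM against 5433, 6282 and 6664 CPM (0.57 ± 0.11). miR-98-5p had 2357 and 2420.1 CPM against 1482, 1737 and 1803 CPM (0.50 ± 0.11). These 3 lay above all other DMSO libraries. let-7a-5p, let-7b-5p, let-7d-5p and let-7e-5p had log2 fold changes of 0.03, -0.17, -0.06 and 0.02 and were not called. Nor were let-7f-5p (9733 and 13197 CPM against 7567, 8516 and 9761 CPM, 0.42 ± 0.14) and the rarer let-7c-5p (0.55 ± 0.41), whose values were close to that of miR-98-5p. Differences between members were not tested. Close relatives share long stretches, so the way reads were assigned among them bears on each member. miR-98-5p, in an intron of HUWE1 on chromosome X, was not called without DMSO 24 h A (0.50), DMSO 3 h A (0.51) or DMSO 3 h B (0.49).

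**Figure D2:**
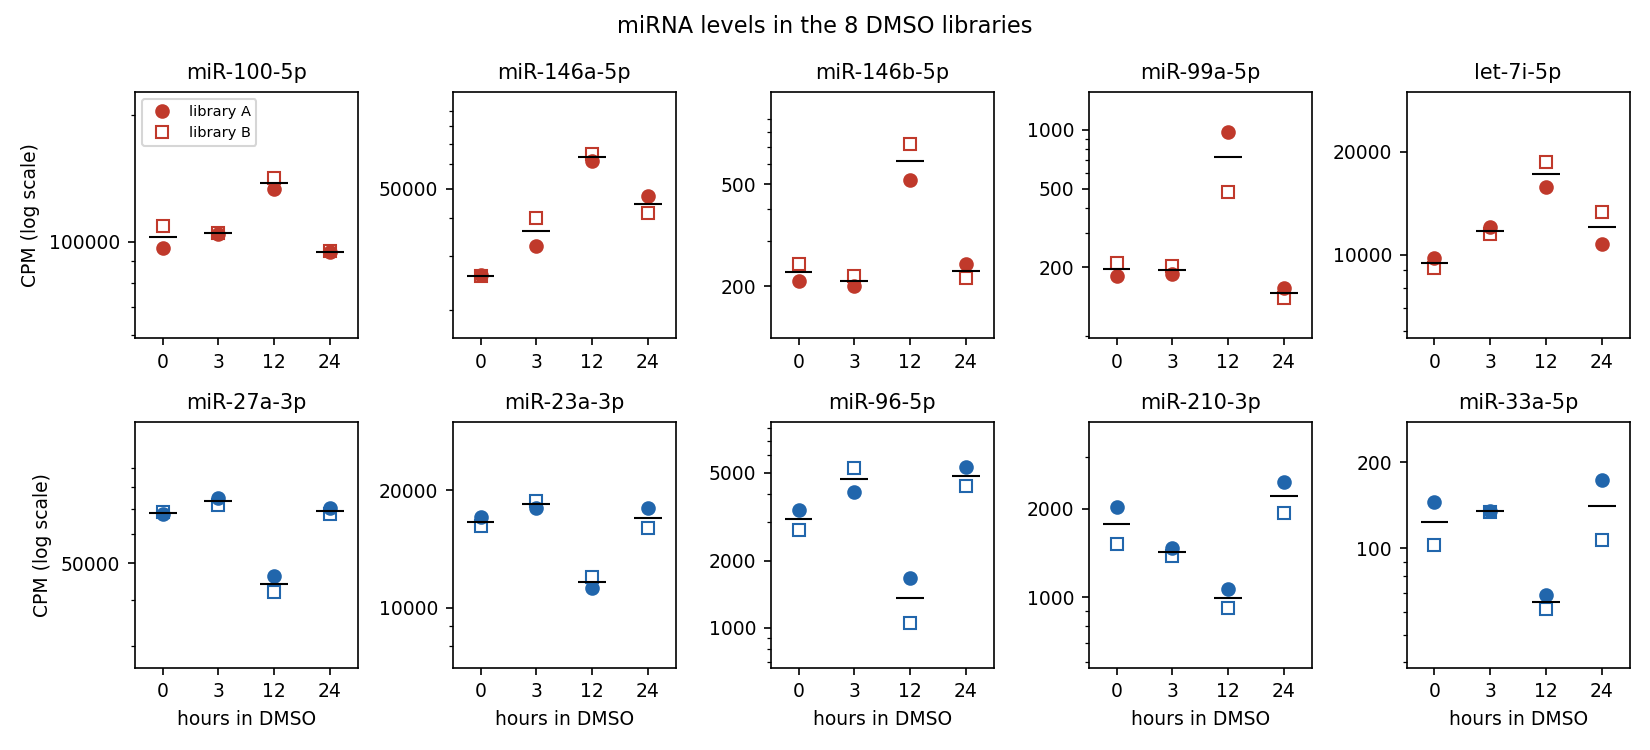
Levels of 10 miRNAs (CPM, log scale) in the 8 DMSO libraries by labelled time in hours; filled circles are library A, open squares library B, and bars the mean of the 2. In the upper row (red, called higher) the 12 h pair lies above all 6 other libraries, in the lower row (blue, called lower) below them, and miR-146a-5p also climbs from 25911 CPM at 0 h to 44513 at 24 h.

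Among the lower entries the most abundant was miR-27a-3p, the third most abundant of all. It had 46324 and 41978 CPM at 12 h against 67715, 69653 and 75118 CPM elsewhere, a log2 fold change of -0.67 ± 0.10. The 6 other libraries lay close together and the 12 h pair well below them, at -0.63, -0.74 and -0.65 against 0, 3 and 24 h. miR-27a-3p comes from chr19:13836440-13836517, minus strand, beside miR-23a and miR-24 in 1 primary transcript, and is known to repress FBXW7 and PPARG.

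miR-23a-3p, from the neighbouring hairpin (chr19:13836587-13836659), had the same direction, with 11235 and 11993 CPM against 15962, 17527 and 18707 CPM (-0.58 ± 0.11). miR-24-3p, the third product, which can also come from a second locus, differed: it had 21455 and 23007 CPM against 21594, 23580.2 and 25499 CPM (-0.08 ± 0.10) and was not called. Of the 5 fitted members of the miR-23/27/24 list, 3 were called lower and 0 higher, and all 5 log2 fold changes were below 0 (median -0.42). miR-23b-3p, from chromosome 9, had 1855 and 1871 CPM against 2200.1, 2568 and 2689 CPM (-0.42 ± 0.12). It lost its call without any 1 of the 4 libraries of 3 and 24 h, at -0.41 to -0.43. miR-23c had 13.4 and 11.2 CPM against 24.9, 29.2 and 35.1 CPM (-1.23 ± 0.27). All 3 fitted entries with the miR-23 seed were therefore called lower. miR-23a-3p and miR-23b-3p share most of their sequence, so the assignment of reads between them is uncertain. miR-27b-3p, which differs from miR-27a-3p by 1 base, was not called (-0.27).

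miR-96-5p, known to repress FOXO1 and FOXO3, had the largest drop among entries above 1000 CPM. It had 1673 and 1053 CPM at 12 h against 2751, 4218 and 5327 CPM, a log2 fold change of -1.59 ± 0.21. Its cluster mates on chromosome 7, miR-183-5p (-0.43) and miR-182-5p (-0.25), also lay below all 6 other libraries in both 12 h libraries and were not called. The call therefore covered 1 of the 3 members of this cluster, and the difference between members was not tested.

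The miR-29 family, which represses collagen and DNA methyltransferase mRNAs, had 2 of 3 members called lower. miR-29b-3p had 999 and 829.5 CPM against 1294, 1465 and 1619.9 CPM (-0.67 ± 0.14). miR-29a-3p, the fourth most abundant miRNA, had 48789.5 and 46676 CPM against 54811, 60614 and 63942 CPM (-0.32 ± 0.10), and its call was lost without any 1 library other than DMSO 0 h B, at -0.29 to -0.35. miR-29c-3p (-0.49) was not called.

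miR-33a sits in an intron of SREBF2 (chr22:41900944-41901012, plus strand), the gene of a master regulator of cholesterol synthesis, and represses the cholesterol exporter ABCA1. miR-33a-5p had 68.5 and 61.2 CPM at 12 h against 103, 135 and 174 CPM (-1.03 ± 0.24). The opposite arm, miR-33a-3p, had 9.87 and 8.16 CPM against 17.5, 21.9 and 31.0 CPM (-1.30 ± 0.35). miR-33b-5p, from the intron of SREBF1, had a log2 fold change of -1.07 ± 0.39 and was not called. In all, 2 of 4 fitted miR-33 arms were called lower and 0 higher (median -1.05). The call of miR-33a-3p was lost in 6 of 8 fits that left out a library (-1.14 to -1.46), being kept only without DMSO 0 h A or DMSO 24 h B.

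miR-210-3p, the best-known miRNA induced by hypoxia through HIF1A, had 1062 and 919 CPM against 1381, 1721 and 2474 CPM, a log2 fold change of -0.84 ± 0.17. The 6 other libraries spread over time, and the 12 h pair lay below each of them. The hairpin lies at chr11:568089-568198, minus strand, in an intron of MIR210HG. The rare opposite arm, miR-210-5p, had 4.06 and 21.4 CPM against 5.85, 10.0 and 13.6 CPM, and its A and B lay on either side of the other 6.

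In the miR-17-92 cluster and its paralogs, driven by MYC and E2F and tied to proliferation, 3 of 11 fitted entries were called lower and 0 higher (median -0.11), against 6.64% lower and 9.96% higher over all fitted entries. miR-19a-3p had 316 and 389 CPM against 336, 653 and 1057 CPM (-0.94 ± 0.22). miR-19b-3p had 1590.2 and 1996 CPM against 1646, 3647 and 4965 CPM (-0.96 ± 0.22). In both, library B of 0 h was the lowest of the other 6 and overlapped the 12 h pair, and the log2 fold changes were -0.44 and -0.39 against 0 h but -1.50 and -1.46 against 24 h. The 2 sequences differ only by U11C (positions from the 5′ end, miR-19a-3p first), so the assignment of reads between them is uncertain. The other called member was miR-106b-5p (1121 and 821 CPM against 1373, 1501 and 1818 CPM, -0.65 ± 0.15), which lost its call without DMSO 12 h B (-0.45), DMSO 24 h A (-0.63) or DMSO 3 h A (-0.63). The members most often used as markers of the cluster, miR-17-5p (-0.39), miR-20a-5p (-0.11) and miR-92a-3p (0.20), were not called. The partner arms miR-17-3p (-0.76) and miR-20a-3p (-0.95), which are not on the list, were called lower.

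The CLCN5 host gene on chromosome X carries a cluster of hairpins in its introns. Of its 13 fitted arms, 4 were called lower and 0 higher, and 12 of 13 had log2 fold changes below 0 (median -0.34). miR-362-3p (chrX:50008964-50009028, plus strand) had 80.1 and 61.2 CPM against 161, 208 and 228 CPM (-1.49 ± 0.21). miR-188-3p had 50.5 and 34.7 CPM against a lowest of 72.1 and a median of 76.8 CPM (-0.96 ± 0.21). miR-532-3p had log2 fold changes of -0.73 ± 0.16 and miR-660-5p of -0.70 ± 0.15. The called arms were lower by unequal amounts, and their partners miR-362-5p (-0.32), miR-188-5p (-0.17) and miR-532-5p (-0.02) were not called.

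Further lists with lower members were small. In the miR-15/16 family, which represses BCL2 and cyclins, miR-15a-5p (-0.48) and miR-424-5p (-0.84) were called of 7, and all 7 log2 fold changes were below 0. Of the 5 fitted miR-130 and miR-301 relatives, all were below 0 and the called ones were miR-130b-3p (-0.73) and miR-301b (-0.85). miR-424-5p and miR-130b-3p kept their calls with each library left out, miR-15a-5p did not without any 1 of the 3 and 24 h libraries (each -0.48), and miR-301b did not without DMSO 12 h A, 24 h A, 3 h A or 3 h B (-0.82 to -0.86). Of 6 fitted miRNAs that respond to p53, miR-192-5p (0.63) was called higher, and miR-107 (-0.48) and miR-34a-5p (-0.81) lower. miR-34a-5p, a direct p53 target, had 91.7 and 56.1 CPM against 98.2, 132 and 151 CPM, its call was lost in 6 of 8 fits (kept without DMSO 12 h A and 24 h B), and its value was -0.52 without DMSO 12 h B and -1.23 without DMSO 12 h A. In the miR-30 family miR-30d-5p (2388 and 2807 CPM against 1385, 1740.1 and 2005 CPM, 0.61 ± 0.12) was higher and miR-30e-5p (2213 and 1567 CPM against 2504, 3477 and 3698 CPM, -0.79 ± 0.16) lower. No member of the miR-200 (5 fitted), miR-181 (4), miR-148 (3), HOX-embedded (5) or mirtron (2) lists was called. The HOX-embedded list is not complete. miR-196a-3p, the other arm of the listed miR-196a-5p, was called lower (-0.98, and -1.08 to -0.895 with 1 library left out), a call not kept in every such fit. miR-7704, also HOX-embedded and rare, was called higher (1.29 ± 0.37).

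The imprinted 14q32 cluster lies in the chromosome 14 domain of DLK1 and MEG3. Of the 54 fitted entries on the list for it, 7 were called higher and 1 lower, with a median log2 fold change of 0.19, against 9.96% higher, 6.64% lower and a median of 0.08 over all fitted entries. The list is not complete: miR-136-5p (272 and 256 CPM against 377, 412 and 464 CPM, -0.65 ± 0.14) and miR-1185-5p (12.8 and 14.3 CPM against 19.7, 28.5 and 33.5 CPM, -1.03 ± 0.28) also come from this domain and were called lower. The call of miR-1185-5p was lost in 6 of the 8 fits with 1 library left out (all but those without DMSO 0 h B or 3 h A), at -0.94 to -1.10. miR-411-5p had 1692 and 1901 CPM at 12 h against 952, 1188 and 1319.6 CPM (0.62 ± 0.13). miR-127-3p had 1569 and 1670.2 CPM against 1046, 1077 and 1224 CPM (0.55 ± 0.11). miR-370-3p had the largest value of the list, 1.31 ± 0.24, but its 513 CPM in A lay within the other 6 (238, 338 and 536 CPM) and its 1159 CPM in B above them, and without DMSO 12 h B it stood at 0.61. In the opposite direction, miR-377-3p had 258 and 263 CPM against 395, 507 and 739.7 CPM (-0.98 ± 0.15). On the list, 39 log2 fold changes were above 0 and 15 below.

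Several miRNAs with the largest ratios were rare. miR-135a-5p had 2.90 and 1.02 CPM at 12 h against 6.63, 14 and 20.1 CPM (-2.63 ± 0.53). miR-153-3p had 20.9 and 5.10 CPM against 44.3, 51.8 and 69.6 CPM (-1.92 ± 0.40), or -3.38 without DMSO 12 h A. Both are best known from neurons and their targets there, and in both all 6 other libraries lay above the 12 h pair.

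Among the rare entries that were higher, miR-1268a had 23.8 and 59.2 CPM against 5.02, 7.59 and 11.3 CPM (2.43 ± 0.40), and miR-1268b had 29 and 63.3 CPM against 5.64, 10.2 and 13.8 CPM (2.25 ± 0.35). Their sequences share the first 18 bases, so they are not separate evidence. miR-7706 (33.7 and 43.9 CPM against 1.25, 6.46 and 18 CPM) and miR-6750-5p (38.3 and 43.9 CPM against 1.26, 14.8 and 25.2 CPM) had log2 fold changes of 2.57 ± 0.45 and 2.28 ± 0.37. miR-6750-5p was uneven over the other times, at 0.83 against 0 h and 4.71 against 24 h.

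Among entries with a mean of at least 10 CPM, the 2 largest rises belonged to ones without a miRNA name, so what they are is not known here. chr7_18301 had 243 counts in the 2 libraries of 12 h (61.5 and 139.8 CPM) and 1 count in the 6 others, a ratio of 1060 after scaling for depth, with a 95% exact counting interval of 188 to 42000. chr14_29384 had 158 and 362 CPM against 0.385, 2.56 and 4.98 CPM, a log2 fold change of 6.76 ± 0.43. Both were present in A and in B of 12 h and close to nothing at each other DMSO time. chr11_23876, far better counted, had 2153 and 3425 CPM against 911, 994 and 1152 CPM (1.47 ± 0.16). miR-4762-3p had 26 counts at 12 h and 0 in the 6 others, at least 37.7-fold higher against a floor of 3 counts over the group. In all, 13 of the 72 higher and 3 of the 48 lower entries were unnamed, where 622 of the 723 fitted entries had a name. Means under 10 CPM were seen in 12 of the 72 higher and 0 of the 48 lower entries. With 1 and 0 counts in the 6 others, chr7_18301 and miR-4762-3p passed the minimum count through the 12 h libraries. The filter can thus admit a rare entry because it is high at 12 h. Nothing is therefore read from the number of rare rises or the size of their ratios.

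Against each other DMSO time in turn, 12 h gave 80 called entries (11.1% of 723) over 0 h, 53 (7.33%) over 3 h and 59 (8.16%) over 24 h. By direction, 6.36% were higher and 4.7% lower than at 0 h, 4.29% higher and 3.04% lower than at 3 h, and 4.56% higher and 3.6% lower than at 24 h. These 3 comparisons share the 12 h libraries. Between the remaining times there were 16 (2.21%; 0.277% higher and 1.94% lower) for 24 h over 0 h and 0 for 3 h over 0 h and for 24 h over 3 h, where edgeR gave 54 and 79 entries at an unadjusted p under 0.05. The median absolute log2 fold change over all fitted entries was 0.47, 0.44 and 0.43 for 12 h over 0, 3 and 24 h. It was 0.29, 0.36 and 0.28 for 3 h over 0 h, 24 h over 0 h and 24 h over 3 h. Of the 120 called entries, 118 had the same sign against 0, 3 and 24 h; since they were called on the mean of these 3 differences, which share the 12 h libraries, nothing is read from this count. Leaving out a library moved these counts widely. Without DMSO 12 h A they were 144, 122 and 131 over 0, 3 and 24 h, and without DMSO 12 h B 86, 90 and 96. Over 0 h the count was 0 without DMSO 0 h A and 6 without 0 h B, over 3 h it was 4 without DMSO 3 h A and 2 without 3 h B, and over 24 h it was 10 without either 24 h library. Of the 16 for 24 h over 0 h, the count was 0 without DMSO 0 h B or 24 h B, 8 without 0 h A and 5 without 24 h A, and 74 and 72 without 12 h A and B. For 24 h over 3 h it was 28 without either 12 h library. On the first principal component of the 8 DMSO libraries (36.1% of the variance), 12 h A lay at 11.2 and B at 19.7, and the other 6 between -6.66 and -3.71.

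Of the 120 called entries, 96 of the 104 named ones had a mature sequence in the RefSeq table. Within them, 10 seeds were shared by at least 2 called entries (23 entries). In 8 of the 10 the called members had the same direction. Some of these members, such as miR-19a-3p and miR-19b-3p, differ by 1 base, so reads may have been shared. No background share was computed, and nothing is read from this count. The GCAGCAU seed was one of the 2 with both directions. miR-103a-3p had 6084 and 7719 CPM at 12 h against 4710.1, 4949.6 and 5584 CPM (0.44 ± 0.12), while miR-107 had 352 and 404 CPM against 439.5, 537 and 579 CPM (-0.48 ± 0.15). The 2 sequences differ by G22C alone, counted from the 5′ end with miR-103a-3p first, and their hairpins lie in introns of pantothenate kinase genes: miR-103a in PANK3 (chr5:168560896-168560973) and PANK2 (chr20:3917494-3917571), miR-107 in PANK1 (chr10:89592747-89592827). Both calls were near the threshold. That of miR-103a-3p was lost in 7 of 8 fits that left out a library (all but the one without DMSO 12 h A), with 0.26 without DMSO 12 h B. That of miR-107 was lost in 5, kept without either 0 h library or DMSO 12 h B, with -0.38 to -0.49 where lost. miR-103b, annotated opposite miR-103a, had exactly the same counts as miR-103a-3p, so strand did not separate that pair.

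The second seed with both directions was AUUGCAC. miR-92b-3p (chr1:155195177-155195272, plus strand) had 2033 and 2306 CPM against 1431, 1499.6 and 1819 CPM (0.49 ± 0.12). miR-32-5p, in an intron of TMEM245 (chr9:109046229-109046298, minus strand), had 868 and 782 CPM against 1206, 1571 and 1695 CPM (-0.87 ± 0.16). Beyond the seed these 2 sequences differ at 11 positions, and their GC shares are 63.6% and 31.8%.

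Both arms of a hairpin come from 1 precursor in equal number, and differ afterwards in loading and decay. Both arms were fitted for 118 hairpins, counting only entries with a sequence and a single locus. Across them the log2 fold changes of the 5p and 3p arms correlated weakly (Pearson's r 0.187, Spearman's rho 0.187 over 118 hairpins, which share the same 8 libraries). Both arms were called in 3 hairpins: lower for miR-33a, higher for miR-411, and opposite for let-7i. let-7i-3p had 294 and 263 CPM at 12 h against 363, 396 and 496 CPM (-0.54 ± 0.14), while let-7i-5p was higher. In 40 hairpins 1 arm was called, and the other arm had the same sign in 26. The same-sign share over all 118 was not counted, so nothing is read from the 26. Among abundant called strands, the other arm had the opposite sign for miR-146a-3p (-0.46), miR-100-3p (-0.17) and miR-27a-5p (0.23). It had the same sign for miR-191-3p (0.71), miR-99b-3p (0.29) and miR-29a-5p (-0.55). None of these 6 other arms was called.

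**Figure D3:**
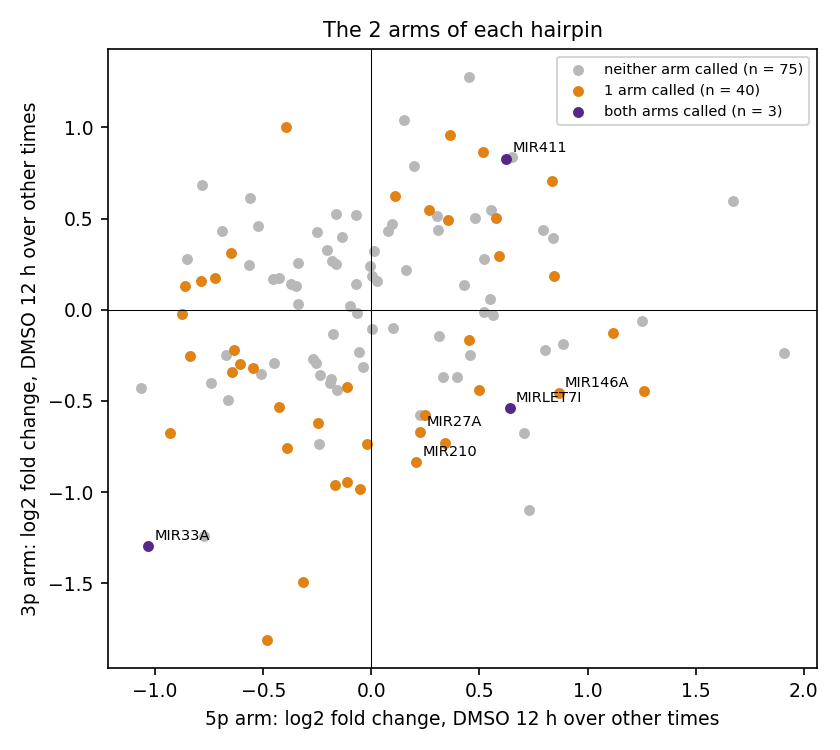
Log2 fold change of the 3p arm against that of the 5p arm in DMSO 12 h over the other DMSO times, for the 118 hairpins with both arms fitted (entries with a sequence and a single locus). Each point is 1 hairpin, coloured by how many arms were called. The points scatter over all 4 quadrants, and of the 3 hairpins with both arms called, MIR33A lies at lower left, MIR411 at upper right and MIRLET7I at lower right.

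Entries with a sequence and a single locus were grouped by position, which left out miR-19b-3p and miR-29b-3p. Hairpins at most 10000 bases apart on 1 strand were joined, and groups with at least 2 hairpins and 3 fitted entries were kept. Of these clusters, 5 held at least 2 called entries. The number of clusters kept was not recorded, so nothing is read from the 5. The called entries had 1 direction in 3 of them, all lower: the MIR17HG cluster on chromosome 13 (miR-17-3p, miR-19a-3p and miR-20a-3p), the miR-23a cluster on chromosome 19 and the CLCN5 cluster (miR-188-3p, miR-362-3p and miR-532-3p). The other 2 both lie in the 14q32 domain and held called entries of both directions.

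Base composition moved with the contrast. Among the 545 named entries with a sequence (87.6% of those fitted), the median log2 fold change was -0.18 where GC made up less than 40% of the bases (n = 123), -0.04 from 40% to 50% (n = 173), 0.04 from 50% to 60% (n = 160) and 0.40 from 60% (n = 89). The order was similar at a mean of at least 100 CPM, at -0.15, -0.13, 0.04 and 0.28. Over the 545 entries Pearson's r was 0.258 and Spearman's rho 0.261. The called higher entries had a median GC share of 54.5% (n = 53) and the called lower ones of 40.9% (n = 43), against 47.6% over all 545. With only well-counted entries, at a mean of 100 CPM or more, the medians were 47.8% (n = 32) and 40.9% (n = 33). The share of GC weighted by counts was 44.8% in A and 45.5% in B of 12 h, against 44.5% to 45.2% in the other DMSO libraries. Length did not follow the same order (rho -0.025).

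A fit of these 545 entries alone, with no offset, called 59 higher and 48 lower, among them all 96 called before. With an offset for GC in each library, 89 of the 545 were called (52 higher and 37 lower), among them 71 of the 96 called entries with a sequence, and all 96 kept their sign. The log2 fold change of miR-99b-5p went from 0.59 to 0.33 and lost its call, and that of miR-1268a from 2.43 to 1.58 with its call kept. The part of base composition in the remaining results was not tested.

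**Figure D4:**
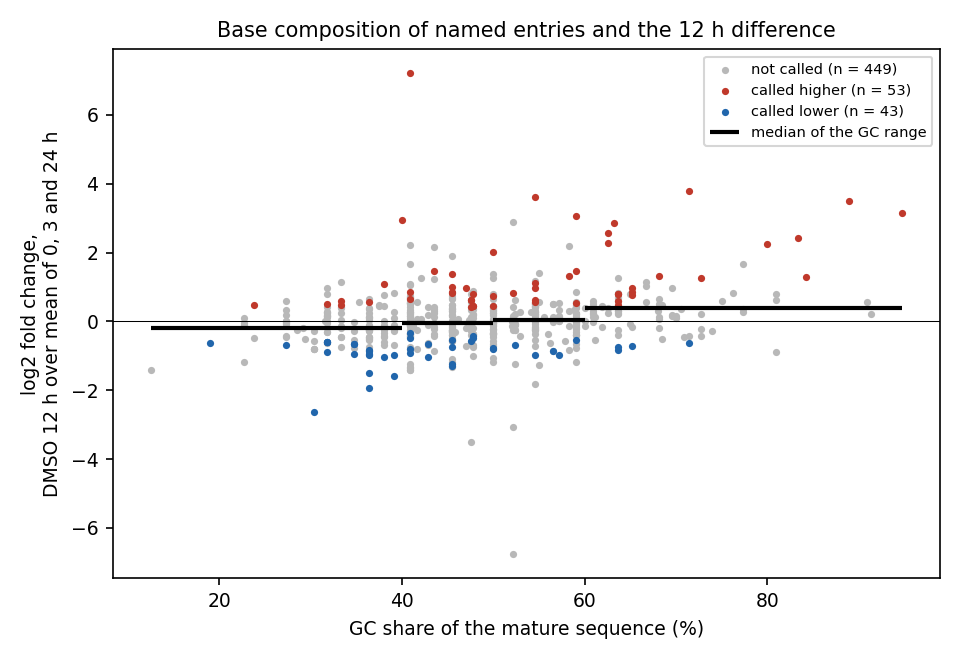
Log2 fold change of DMSO 12 h over the other DMSO times (vertical axis) against the GC share of the mature sequence in percent (horizontal axis) for 545 named entries; each point is 1 entry and black bars are medians of 4 GC ranges. The medians climb from -0.18 under 40% GC to 0.40 from 60% GC, with called entries of both directions in every range.

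Other values that moved with the 12 h libraries were these. Of 8 fitted markers of fibroblast and endothelial cells, all had log2 fold changes below 0 (median -1.06) and 1 was called, miR-126-3p (440.1 and 433 CPM against 534, 651 and 742 CPM, -0.53 ± 0.15), a call lost in 6 of 8 fits and kept without DMSO 0 h B or 24 h A. The summed level of all 9 listed was 883 and 1117 CPM at 12 h and 1412 to 1644 CPM elsewhere. miR-145-5p and miR-214-3p were at 0 in both 12 h libraries, but elsewhere also ran from 0, to 24 and 4.98 CPM. Several uncalled markers were rare and uneven elsewhere, such as miR-143-3p (6.14 to 150 CPM) and miR-199a-5p (1.32 to 92.9 CPM), so nothing is read from the median. Of 8 blood markers, the only one fitted was miR-486-5p, with 551 and 663 CPM against 313, 359 and 399.8 CPM (0.76 ± 0.14). miR-451a, miR-144-3p, miR-144-5p and miR-150-5p were at 0 in both 12 h libraries, and their lowest value elsewhere was also 0. miR-142-5p had 2.9 and 4.08 CPM at 12 h against 0 to 1.88 CPM elsewhere. miR-142-3p (0.581 and 2.04 against 0 to 3.32 CPM) and miR-223-3p (1.16 and 1.02 against 0 to 1.17 CPM) were at trace levels. Among muscle, liver and neuron markers, miR-128-3p (0.41) was called higher and miR-9-3p (-0.59) lower. The call of miR-128-3p held only without DMSO 12 h B among fits with 1 library left out, and that of miR-9-3p only without DMSO 12 h A or 0 h B. As a sign of RNA quality, the 23 listed entries that overlap tRNA, rRNA, U2 or snoRNA summed to 6311 and 4074 CPM at 12 h, within the 4264 to 8980 CPM of the other libraries but for B just below, and 1 of the 10 fitted ones was called higher (miR-4485, 18 and 17.3 CPM against 2.63, 5.14 and 12.4 CPM). The part of depth, RNA quality or other cells in the result was not tested.

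The 12 h time point was also sampled in the 6 PA libraries, which the contrast did not use. Those cells met PA, so the vehicle state at 12 h is not repeated there. With edgeR on the PA libraries alone, PA 12 h against the mean of PA 3 and 24 h gave 0 higher and 3 lower calls of 722 entries (0.416%), with 71 at an unadjusted p under 0.05. The 3 were the unnamed chr13_28163 (62.9 and 77.3 CPM at 12 h against 89.2 and 131 CPM for 3 h, and 299 and 342 CPM for 24 h; -1.42 ± 0.21, edgeR adjusted p = 0.0133), chr8_19924 (-1.56 ± 0.22, adjusted p = 0.0133) and chr1_2271 (-1.55 ± 0.25, adjusted p = 0.0186). In each of the 3 the PA 24 h libraries were the highest, and chr8_19924 was lower at 3 h (444 and 294 CPM) than at 12 h (609 and 614 CPM), with 7019 and 10610.0 CPM at 24 h. Only chr13_28163 was also called in DMSO 12 h. The count was 36 without library A of PA 24 h and 9 without library B. It was 2 without library A of PA 3 h and 1 without library B, and 0 without either library of PA 12 h.

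The entries called in DMSO 12 h had small differences in PA. Of the 72 higher ones 62 were fitted in PA, with a median log2 fold change of 0.02 and 35 above 0. In DMSO 12 h against the mean of 3 and 24 h, where 9.13% of 723 entries were called higher and 6.09% lower, the same 62 had a median of 0.79. The 48 lower ones had a median of 0.03 in PA, with 18 below 0, and of -0.79 in DMSO. The median absolute value over these 110 was 0.14 in PA and 0.79 in DMSO. The 110 were picked by their DMSO values, which makes the DMSO value large by choice. Nothing is therefore read from the gap. PA levels were scaled among the PA libraries alone, so they are read only against each other. miR-27a-3p had 74152 and 79580.2 CPM at 12 h, above the 65383 and 73722 CPM of 3 h and below the 102328 and 91825 CPM of 24 h. miR-96-5p had 5577 and 7535 CPM at 12 h and 3926 to 8723 CPM in the other 4. miR-99a-5p had 171 and 220.2 CPM at 12 h and 166 to 283 CPM in the other 4. miR-146a-5p had 35650.4 and 38927 CPM at 12 h and 30968 to 38989 CPM in the other 4. In these 4 miRNAs the PA 12 h libraries lay within the range of the PA 3 and 24 h libraries. As a share of all counts, with no scaling, the 72 higher entries took 22.7% to 27.1% and the 48 lower ones 17.7% to 19.2% in the 6 PA libraries. The log2 fold changes in PA were -0.10 ± 0.12 for miR-27a-3p, 0.34 ± 0.23 for miR-96-5p, -0.19 ± 0.16 for miR-99a-5p and 0.10 ± 0.12 for miR-146a-5p. That PA and DMSO differ in this contrast was not tested, since DMSO 12 h was chosen for its departure.

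**Figure D5:**
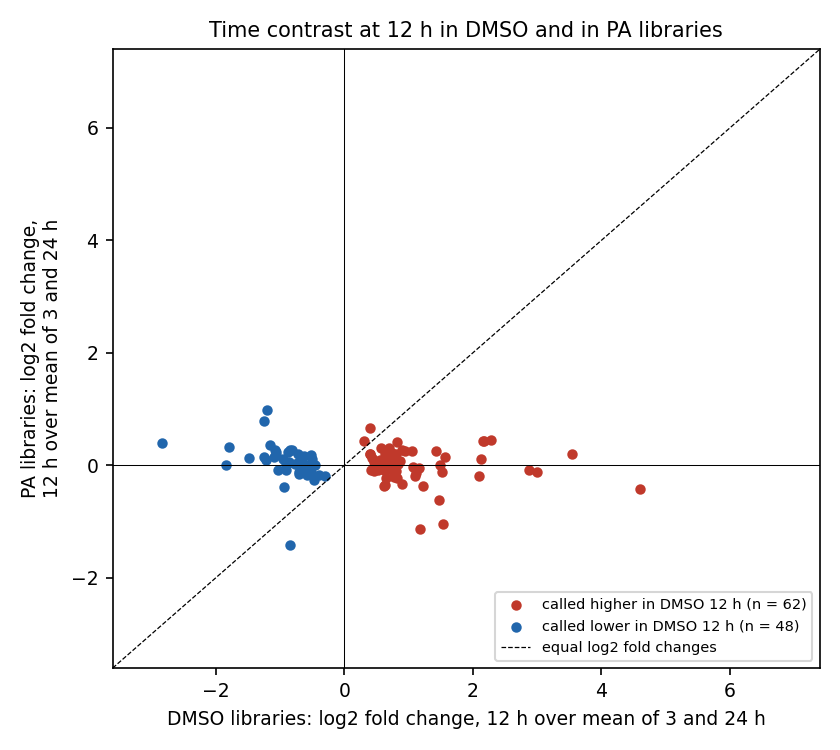
Log2 fold change of 12 h over the mean of 3 and 24 h in the PA libraries (vertical axis) against the same in the DMSO libraries (horizontal axis) for the 110 entries called in DMSO 12 h and fitted in PA; red points were called higher and blue points lower in DMSO, and the dashed line marks equal values. The points, picked by their DMSO values, spread along the horizontal axis and lie near 0 on the vertical one, with medians of 0.02 (red) and 0.03 (blue) in PA.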

How the data were processed

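The authors deposited a table of whole-number read counts per mature miRNA entry and library, used as it stands, and a TPM table, not used here. The tools named are bcl2fastq, Bowtie and edgeR with build GRCh38, per the submitters' processing notes. What each did, its version, and how strand and reads with several matches were treated is not given in the sources used here. Of the value columns, 0 were without a library.

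Counts of the 8 DMSO libraries were fitted in R 4.3.3 with edgeR 4.0.16 (robust quasi-likelihood, TMM scaling, group means, filterByExpr with a minimum count of 10 and a total of 15), and the 6 PA libraries likewise. The adjusted p is that of Benjamini-Hochberg over all fitted entries, and entries under 0.05 are called. CPM are counts per 1000000 counts of the TMM-scaled library total, scaled separately for DMSO and PA. The set of named entries began with the 12 largest rises and 12 largest falls among called entries. In these, both 12 h libraries had to lie outside the 6 others, with a mean of at least 10 CPM. The set also held the 10 most abundant called, the 5 most abundant of all, and called members of the lists. Not all of the set is described above. Left out were, for example, miR-21-5p (most abundant of all, -0.20, not called), chr17_33942 (3.2), miR-409-3p (0.96) and chr22_38634 (-1.13). Arm partners, family mates, members of shared seeds and rare unnamed extremes were added after their values were seen. The members and lists were chosen with earlier results of these data known. Sequences and hairpin positions are from RefSeq (GRCh38.p14) and host genes from GENCODE. Intervals and floors cover counting error only. Alternatives tried were other scaling, DESeq2 1.42.0, other filters, designs and sets of entries, a GC offset, the replicate block and leaving out each library.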

Additional observations from a re-analysis of the deposited data

How the results depend on the processing

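The count of 120 called entries (72 higher, 48 lower) ranged from 78 to 163 when 1 library was left out (47 to 94 higher, 30 to 69 lower); it was 78 without DMSO 24 h A or DMSO 3 h B and 163 without DMSO 12 h A. In the other settings it was 119 with total counts, 120 with DESeq2 size factors in edgeR, 108 with DESeq2, 123 with no filter, 124 at a mean of at least 10 CPM, 85 with 2 groups, 134 with all 14 libraries, 113 with named entries only, and, a choice made after seeing the data, 110 against DMSO 3 and 24 h only. The share called higher was 60% and fell to 45.5% with no filter, a difference the cause of which was not tested. All of the 120 that were fitted kept their sign in every setting. Of 67 named entries called, 47 were called with each library left out in turn, and 0 changed sign; miR-22-3p, not called, stood at 0.17 and turned to -0.0943 without DMSO 12 h B, with 0.401 without DMSO 12 h A as its highest value.

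With the replicate block (letter A or B as a term) 91 entries were called, all among the 120; the counts were 62, 43 and 38 for 12 h over 0, 3 and 24 h, and 1 for PA 12 h. Differences between A and B were not shared across times: their correlations over entries between DMSO times ran from -0.207 to 0.105. Whether A and B were paired by design is not in the labels.

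Leaving out 1 library, with the lone library assumed to vary like the others, gave 0 to 144 calls for 12 h over 0 h, 2 to 122 over 3 h, 10 to 131 over 24 h, 0 to 74 for 24 h over 0 h, 0 to 28 for 24 h over 3 h, 0 for 3 h over 0 h and 0 to 36 for PA 12 h. With all 14 libraries 12 h over 3 h gave 88 calls, 24 h over 0 h 29 and 24 h over 3 h 10. The causes were not tested.

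The depth of 12 h B and 2 libraries at each time limit entries under about 10 CPM, where single counts set the value, and the interval of each fold rests on a spread pooled over 4 times. Close relatives and identical entries (miR-103a-3p with miR-103b, miR-374b-5p with miR-374c-3p) are not separate evidence.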
